A study of Mus musculus with 8 samples.

Results

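The genes described here are 41 genes of DNA replication and mitosis, a set given by name that covers origin licensing, DNA synthesis, nucleotide supply, the cyclins and CDKs, mitotic kinases and checkpoint proteins, chromosome and spindle components, and the transcription factors that drive them. All 41 names matched 1 gene each among the 21938 protein-coding genes of the assembled mouse chromosomes in GENCODE vM21. H3K56ac (histone H3 acetylated at lysine 56) was measured by ChIP-seq, the sequencing of immunoprecipitated chromatin, in MuSCs, the stem cells of skeletal muscle, which were sorted by flow cytometry straight from limb and trunk muscle. The 8 libraries came from C57BL/6 mice and fell into 4 groups of 2, namely H3K56ac and input libraries of Control mice and the same of Sirt6mKO mice, where input is chromatin that was not immunoprecipitated. Control mice are labelled wild type. Sirt6mKO mice (Pax7-ICNCrepos Sirt6 fl/fl) lack the H3K56 deacetylase SIRT6 in the skeletal muscle lineage, since their Cre is constitutive and driven by the Pax7 promoter, and the deletion is not limited to the adult stem cell. The labels give no age for these mice. The paper's legend to the figure with these data names male mice and an age range in weeks, for the figure as a whole.

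One list of 105600 merged peaks was available, in which the genotypes and replicates are not separated. The question of how loss of Sirt6 changes H3K56ac at these genes was therefore not analysed here, and no spread between replicates can be given. The list holds no depth, and the read totals that the study gives for its libraries were not used here. Each value below is a position or a width in the merged list. As a check of the cell type label, 8 of 8 MuSC marker genes had a promoter peak (Pax7, Myf5, Itga7, Vcam1, Calcr, Cd34, Cdh15 and Sdc4), with widest promoter peaks of 7972 to 30239 bp. Among 14 markers of other cells found in muscle, 7 had a promoter peak and 3 had the reference start site inside a peak. Markers without a promoter peak included Ptprc, Cd3e, Cdh5, Ly6a and Acta1.

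Chromosome duplication is prepared in G1, when the origin recognition complex, CDC6 and CDT1 load the MCM2 to MCM7 helicase, and it begins when CDC45 and GINS join that helicase. Entry into S phase and mitosis is then timed by cyclins bound to CDKs, and the spindle checkpoint holds back separation of the chromatids until every kinetochore is attached. Resting adult MuSCs are outside the cell cycle and use these genes again only after activation. In resting cells such genes are known targets of repression by RB family proteins, which act through E2F sites and, in the DREAM complex, through the cell cycle genes homology region (CHR) read by LIN54. CCAAT boxes, bound by NF-Y, often lie beside a CHR.

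To show what lies under these peaks, the 300 bases around the reference transcription start site (TSS) of each gene, 250 before and 50 after, were searched on both strands for the CHR (TTTGAA or TTCGAA), for 4 E2F words (TTTCCCGC, TTTCGCGC, TTTGCCGC and TTTGGCGC) and for CCAAT. The reference TSS is that of the principal transcript of the gene. Of the 10 promoters whose CHR or E2F match lay nearest the reference TSS, 9 are printed below as the 100 bases before the reference TSS and the 20 bases from it on, 5′ to 3′ along the gene, on GRCm38.p6 (RefSeq genome). Capitals mark whole matches to any of the 3 motifs on either strand, so that a CHR on the opposite strand reads TTCAAA and a reversed CCAAT box reads ATTGG.
Ccnb2 (chr9:70421528-70421647, minus strand): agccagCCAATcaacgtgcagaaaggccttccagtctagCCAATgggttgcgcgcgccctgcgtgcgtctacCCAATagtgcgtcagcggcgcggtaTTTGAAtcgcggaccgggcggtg
Aurkb (chr11:69045552-69045671, plus strand): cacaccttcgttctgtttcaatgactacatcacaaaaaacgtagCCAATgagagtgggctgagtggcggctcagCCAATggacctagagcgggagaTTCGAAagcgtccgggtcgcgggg
Gins1 (chr2:150909494-150909613, plus strand): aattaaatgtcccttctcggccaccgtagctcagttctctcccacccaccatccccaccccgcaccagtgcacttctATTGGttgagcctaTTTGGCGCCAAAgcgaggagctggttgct
Mcm5 (chr8:75109469-75109588, plus strand): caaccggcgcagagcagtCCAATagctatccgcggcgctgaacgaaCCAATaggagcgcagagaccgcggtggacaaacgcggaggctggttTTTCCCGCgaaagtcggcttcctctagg
Cdc20 (chr4:118437333-118437452, minus strand): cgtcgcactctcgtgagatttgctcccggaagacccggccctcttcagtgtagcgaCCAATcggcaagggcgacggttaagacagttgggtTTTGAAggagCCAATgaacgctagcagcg
E2f1 (chr2:154569873-154569992, minus strand): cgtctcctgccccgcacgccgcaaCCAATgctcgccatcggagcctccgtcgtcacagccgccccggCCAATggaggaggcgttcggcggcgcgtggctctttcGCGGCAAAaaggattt
Cdc45 (chr16:18811953-18812072, minus strand): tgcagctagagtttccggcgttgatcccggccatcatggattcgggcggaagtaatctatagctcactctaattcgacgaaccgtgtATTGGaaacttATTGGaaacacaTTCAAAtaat
Cdk1 (chr10:69352919-69353038, minus strand): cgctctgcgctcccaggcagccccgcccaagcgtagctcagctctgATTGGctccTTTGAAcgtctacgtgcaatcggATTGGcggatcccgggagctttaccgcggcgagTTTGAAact
Ttk (chr9:83834618-83834737, plus strand): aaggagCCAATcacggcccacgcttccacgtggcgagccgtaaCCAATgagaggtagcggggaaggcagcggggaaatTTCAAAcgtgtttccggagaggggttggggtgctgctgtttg
All 120 bases of 8 of these 9 stretches lay inside an H3K56ac peak, and 110 of 120 did so for Ccnb2, whose peak ended 9 bp into the gene. In Gins1 the run of capitals beside the TSS holds the same E2F word on both strands, overlapping itself, E2F words on opposite strands also overlapped in the longer windows of Mcm5 and Mcm6, and TTCGAA in Aurkb is its own reverse complement and was counted once. Cdk1, the kinase that drives entry into mitosis, carried CHR matches centred 42 bases before and 14 bases after its TSS, with reversed CCAAT boxes between and before them.

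A CHR was found in 16 of the 41 promoters (39.0%), against 17.0% of all autosomal protein-coding promoters of the same length. An E2F word was found in 14 of 41 (34.1%), against 2.9% of autosomal promoters. CCAAT was found in 32 of 41 (78.0%), against 37.7% of autosomal promoters. Among autosomal promoters with an observed to expected CpG ratio of at least 0.6, called CpG-rich below, the shares were 11.5% for a CHR, 4.89% for an E2F word and 36.8% for CCAAT. All 16 promoters with a CHR also held CCAAT. The pair was thus found in 39.0% of members, against 7.06% of autosomal promoters and 5.05% of CpG-rich autosomal ones. The motifs differed by process. Among the 12 genes of mitotic kinases, checkpoint, chromosomes and spindle, 10 had a CHR and 0 an E2F word. Among the 19 genes of licensing, DNA synthesis and nucleotide supply, 3 had a CHR (Cdc45, Mcm2 and Rfc3) and 10 an E2F word. Cdk1 and Rfc3 held both. A match is a run of letters in this window and not a measured binding site, and a gene without one may hold other forms of the motif.

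**Figure D1:**
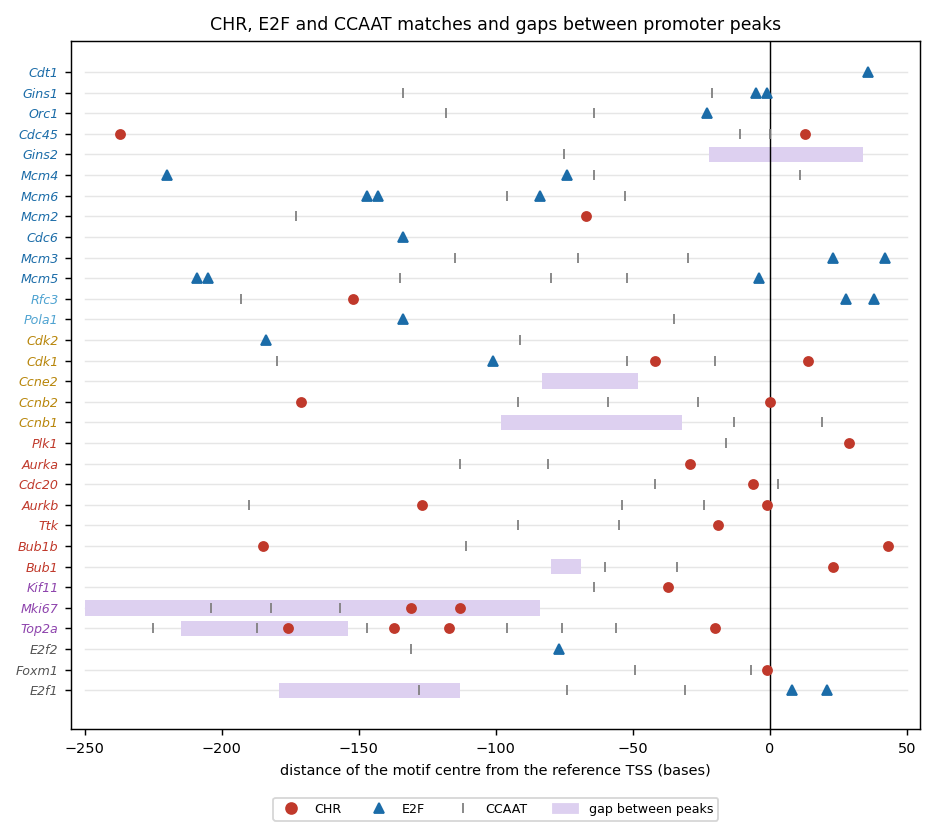
Positions of CHR (circles), E2F (triangles) and CCAAT (ticks) matches relative to the reference TSS, in bases along the gene, for the members with a CHR or E2F match or with a gap between peaks at the TSS, with gene names coloured by role as in the map of promoter peaks. Shaded bars are gaps between neighbouring H3K56ac peaks, cut off at the window edge. Circles gather on the mitosis genes, 10 of 12 of which have one, and triangles on the replication genes.

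In the merged list, H3K56ac marked the promoter of every gene in the set. The list does not say in which genotype or library a peak was called. All 41 had a promoter peak, a merged interval within 1 kb of any annotated TSS of the gene (100%, exact binomial 95% confidence interval 91.4 to 100), while 13901 of 20807 autosomal protein-coding genes had one (66.8%). The reference TSS itself lay inside a peak in 40 of 41 genes (97.6%), against 58.9% of autosomal genes. These intervals cover counting error only, since genes are not replicates. Most members have CpG-rich promoters, a class that was marked at a high rate in general. The observed to expected CpG ratio was at least 0.6 in 35 of 41 promoters (85.4%) and in 47.7% of autosomal promoters, and among autosomal genes that rich in CpG 94.0% had a promoter peak. The 6 members under that ratio, Cenpa, Gins1, Mcm3, Mcm7, Rrm1 and Tyms, also had a peak over the reference TSS.

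Marking of the start site was not restricted to these 41 genes. All 126 genes of 3 further cell cycle lists (other replication genes, other mitosis genes, and RB, E2F and MuvB regulators) had a promoter peak, and in 121 of them the reference TSS lay inside it. The same was true of 31 of 31 proteasome subunit genes, a list of housekeeping genes taken for comparison, and of 10 of 10 genes for CDK inhibitors and D cyclins for the promoter peak alone, with the reference TSS inside it in 8.

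**Figure D2:**
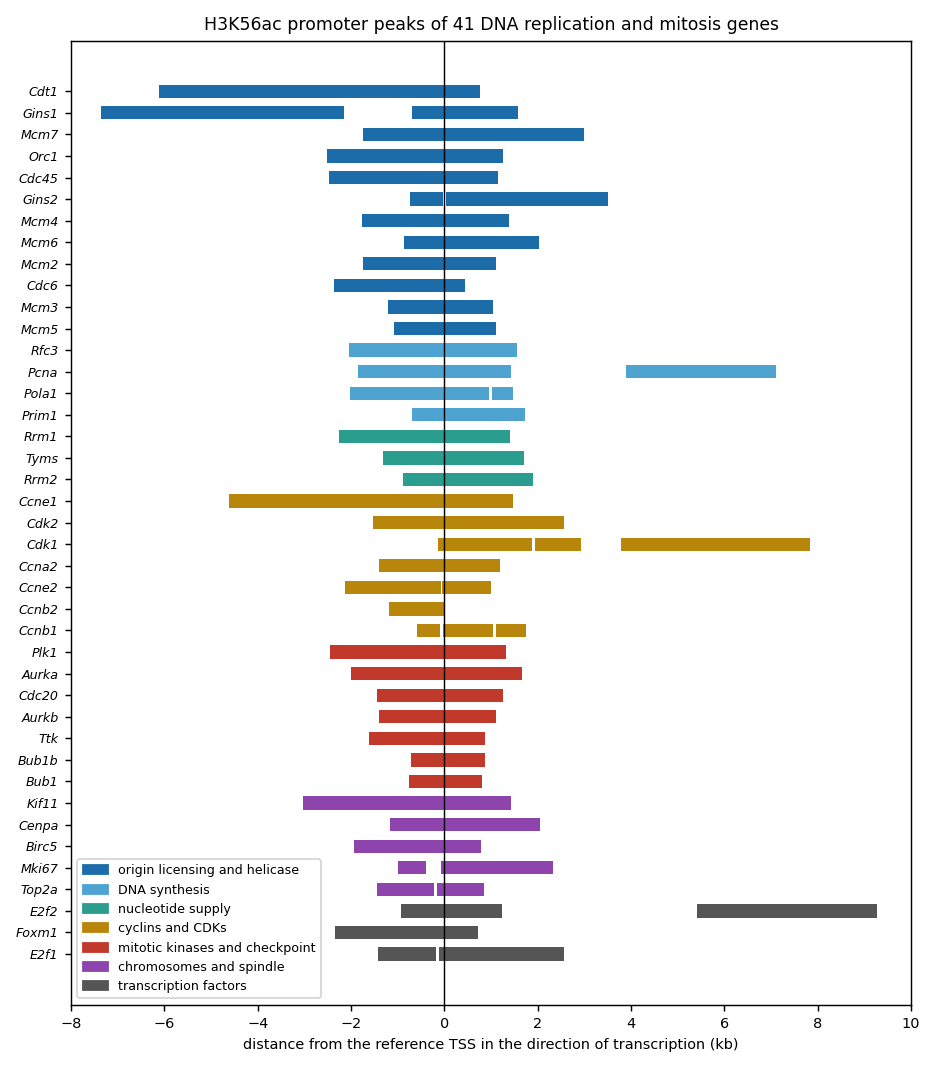
Map of the 55 promoter peaks of the 41 genes, each bar running from the upstream to the downstream end of a peak in kb from the reference TSS (vertical line), coloured by role and ordered by the width of the widest peak within each role. Bars cross or touch the line in all genes except Gins2, and most end within 2 kb on the downstream side.

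Few of the peaks were broad. The widest promoter peak of a member had a median width of 2966 bp (95% interval of the median 2674 to 3587, quartiles 2484 and 3670, n = 41), against 3466 bp (quartiles 2313 and 4974, n = 13901) for autosomal genes with a promoter peak and 3697 bp for the CpG-rich ones. The members' interval includes the first of these values and lies below the second, which was not tested. The first reading depends on the promoter definition. With peaks within 1 kb of the reference TSS only, the members' median was 2809 bp (95% interval 2484 to 3219) and the autosomal one 3401 bp. Of the 41, 14 lay above the autosomal median, 8 below its lower quartile and 3 above its upper quartile. A width of 5 kb or more was reached by 3 members, Cdt1, Ccne1 and Gins1 (7.32%), and by 16.5% of all autosomal genes, or 24.6% of those that had any promoter peak. None of the 41 passed 10 kb, which 3.83% of autosomal genes with a promoter peak did. The 34 CpG-rich autosomal members had a median of 2838 bp (95% interval 2509 to 3587). Among members, width was not ordered by the CpG ratio, the number of annotated TSSs or the gene length (Spearman rho 0.0026, -0.018 and -0.11 over 41 genes, which share 1 merged list). Over autosomal genes the same 3 values were 0.24, 0.18 and 0.11.

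The other cell cycle genes were of like width, with a median of 2953 bp over 126 genes. The medians were 2931 bp for other replication genes and 2788 bp for other mitosis genes. In the lists of genes that regulate entry into the cycle the medians were higher. The RB, E2F and MuvB regulators had a median of 4298 bp (95% interval 3257 to 4843) with a range from 1565 to 6780 bp. The CDK inhibitors and D cyclins had a median of 5472 bp over 10 genes, with an interval of 2174 to 9707 bp that includes the 2966 bp of the members. Of those 10 genes, 5 reached 5 kb and 4 were narrower than the members' median, namely Ccnd2 (1061 bp), Cdkn1c (2174 bp), Cdkn1a (2556 bp) and Cdkn2a (2704 bp), which were picked out after their values were seen. Cdkn2c, which encodes an inhibitor of CDK4 and CDK6, reached 14935 bp, Cdkn1b, which encodes p27, 9707 bp, and the D cyclin gene Ccnd3 8885 bp. Proteasome genes stood between, with a median of 3356 bp and the widest peaks at Psma4 (9804 bp), Psmb3 (7150 bp) and Psma3 (6637 bp). In the other lists the widest were Pold4 (9377 bp), Orc6 (7682 bp) and Pola2 (7061 bp) among replication genes, Cdc25b (14383 bp), Wee1 (7645 bp) and Smc4 (6760 bp) among mitosis genes, and Rb1 (6780 bp), Tfdp2 (6731 bp) and Rbbp4 (6582 bp) among the regulators. The peaks named for Pold4, Pola2 and Rb1 did not cover the reference TSS. Those of Pola2 and Rb1 counted only because they are within 1 kb of another annotated TSS. The Rb1 peak ran from 73234254 to 73241033 on chromosome 14, with the reference TSS at 73325822, and its width is the upper end of the regulators' range.

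In the reach of the peak over the reference TSS, for peaks as deposited, the members differed from autosomal genes more on the side of the gene body than upstream. In the 40 members with a peak over the reference TSS, that peak reached a median of 1432 bp upstream, close to the 1347 bp of autosomal genes. Downstream it reached 1250 bp (95% interval of the median 1101 to 1468, quartiles 983 and 1669), against 1821 bp (quartiles 1232 and 2850) in autosomal genes and 1902 bp in CpG-rich ones. The downstream arm was the longer one in 18 of 40 members (45.0%) and in 65.0% of autosomal genes with such a peak. At 500 bp upstream of the TSS 97.6% of members and 85.7% of CpG-rich autosomal genes were covered, and at 1 kb upstream 73.2% and 71.8%. At 500 bp into the gene the shares were 95.1% and 90.6%. At 1.5 kb into the gene the shares were 39.0% and 66.4%, and at 2 kb into the gene 24.4% and 50.0%. With peaks less than 1 kb apart joined, the members' median reach was 1998 bp upstream and 1428 bp downstream. The autosomal reach was not computed for joined peaks, so the contrast in reach is shown for the peaks as deposited only.

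Other mitosis genes had a downstream arm of like length (median 1229 bp) on genes with a median length of 25519 bp. Members had a median gene length of 14346 bp and autosomal genes one of 17629 bp. The downstream medians were 1478 bp for other replication genes, 1763 bp for proteasome subunits, 2126 bp for RB, E2F and MuvB regulators and 5060 bp for CDK inhibitors and D cyclins.

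**Figure D3:**
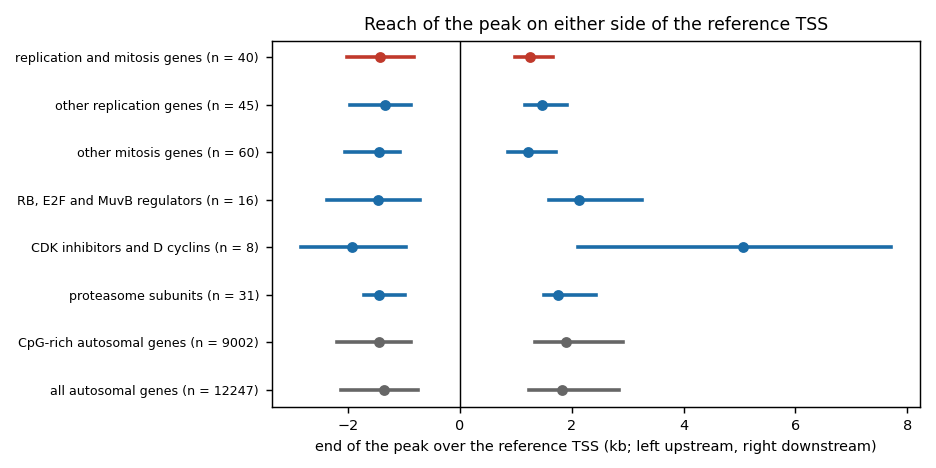
Distance in kb from the reference TSS to the upstream (left) and downstream (right) end of the peak over it, with points for medians, bars for the middle 50% of genes and n for genes with such a peak. Upstream medians run from 1337 bp (other replication genes) to 1932 bp (CDK inhibitors and D cyclins), with 1432 bp for the replication and mitosis genes. Downstream the replication and mitosis genes (median 1250 bp) lie inside the autosomal genes (median 1821 bp) and far inside the CDK inhibitors and D cyclins (median 5060 bp).

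**Figure D4:**
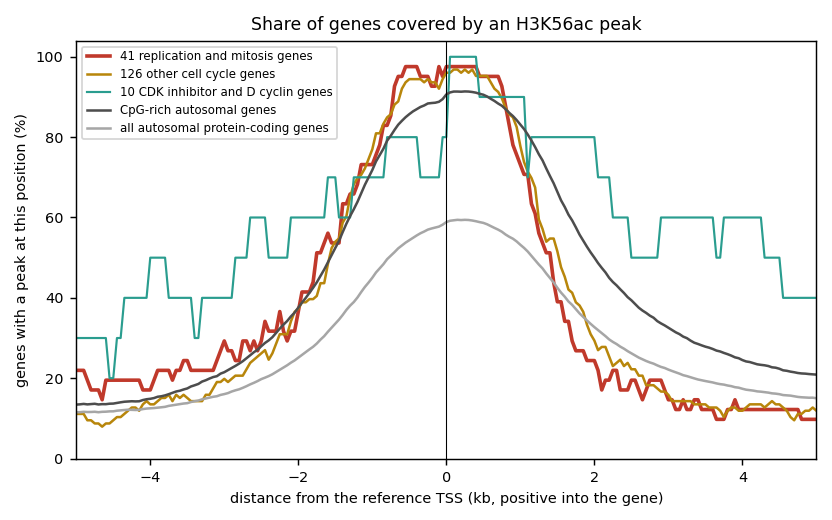
Share of genes in percent whose position at a given distance in kb from the reference TSS lies inside an H3K56ac peak, for 5 sets of genes. The curve of the 41 genes stays near 97.6% at the TSS. Upstream it lies above the CpG-rich autosomal genes at 500 bp (97.6% against 85.7%) and 5 kb (22.0% against 13.4%). Between these it crosses their curve, being near them at 1 kb (73.2% against 71.8%) and 2 kb (36.6% against 37.6%). Inside the gene it is above them at 500 bp (95.1% against 90.6%) and falls below them farther in, to 24.4% against 50.0% at 2 kb.

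Close to the TSS, most of the sequence was covered. The 2 kb centred on the reference TSS were covered in full in 20 of 41 members (48.8%), against 33.9% of autosomal genes, and the median covered share was 97.95% against 78.61%. Among CpG-rich autosomal genes both were higher than in the members, with 57.5% covered in full and a median share of 100%. The lowest shares belonged to Ccnb2 (50.47%), Cdk1 (56.67%) and Cdc6 (71.86%). A further coding gene started within 1 kb on the opposite strand at 5 members (12.2%, against 7.06% of autosomal genes and 13.1% of CpG-rich ones): Aurka with Cstf1, Cdc45 with Ufd1, Foxm1 with Rhno1, Mcm4 with Prkdc and Orc1 with Prpf38a. Including these, the widest promoter peak of 8 members also covered the TSS of another coding gene, the other 3 being Pmel at Cdk2, Abhd12 at Gins1 and Ap4m1 at Mcm7. The median width was 3712 bp for those 8 and 2786 bp for the 33 that had the peak to themselves, and the peak of a shared promoter cannot be ascribed to one of its genes. Among autosomal genes with a promoter peak, 2642 of 13901 shared the widest peak with another coding TSS. The autosomal medians were 4234 bp for shared peaks and 3242 bp for the others, a contrast in the same direction.

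By role, the licensing and helicase genes had a median widest peak of 3308 bp over 12 genes. Cdt1, whose product loads the MCM helicase, had the widest promoter peak of the whole set, 6889 bp on chromosome 8 from 122561897 to 122568785. Of that peak 6118 bp lay upstream of the TSS and 770 bp inside the gene, covering exon 1 of 10. Mcm5, a subunit of the helicase, had the narrowest of the group at 2200 bp, of which 1086 bp lay upstream and 1113 bp downstream. Most other helicase subunits were not far from it, with 2246 bp at Mcm3, 2867 bp at Mcm2, 2893 bp at Mcm6 and 3152 bp at Mcm4. Mcm7 was wider, at 4743 bp, but its peak also covered the start of Ap4m1, and the nearest RefSeq start lay 539 bp from the reference TSS used here. Cdc6, whose product acts with CDT1 in loading, had 2809 bp that ended 437 bp into the gene. Orc1, a subunit of the origin recognition complex, had 3765 bp, and Cdc45, which completes the active helicase, 3617 bp.

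The 2 GINS genes were unlike the rest of that group. Gins1 had peaks of 5199 and 2269 bp, and the wider one, which contains the Abhd12 start, ended 2152 bp upstream of the Gins1 reference TSS, while the narrower one covered it from 701 bp upstream to 1567 bp downstream. Gins2 was the one member with its reference TSS outside every peak. A peak of 722 bp ended 23 bp upstream of the TSS and one of 3463 bp began 35 bp downstream, so the TSS fell into a gap of 57 bp between them.

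DNA synthesis genes ranged from 2420 bp at Prim1, the primase subunit that makes RNA primers, to 3587 bp at Rfc3, a subunit of the clamp loader. Pola1, the catalytic subunit of polymerase alpha and the one member on chromosome X, had peaks of 2966 and 454 bp, the wider one over its TSS. Pcna, the sliding clamp, had 3277 bp over its TSS and a further peak of 3207 bp at the far end of the gene, between 3900 and 7106 bp downstream of the reference TSS, which counted because it is within 1 kb of another annotated TSS of Pcna. The 3 genes of nucleotide supply were alike. Rrm1 and Rrm2, the subunits of ribonucleotide reductase, had 3670 and 2786 bp, and Tyms, thymidylate synthase, had 3015 bp.

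**Figure D5:**
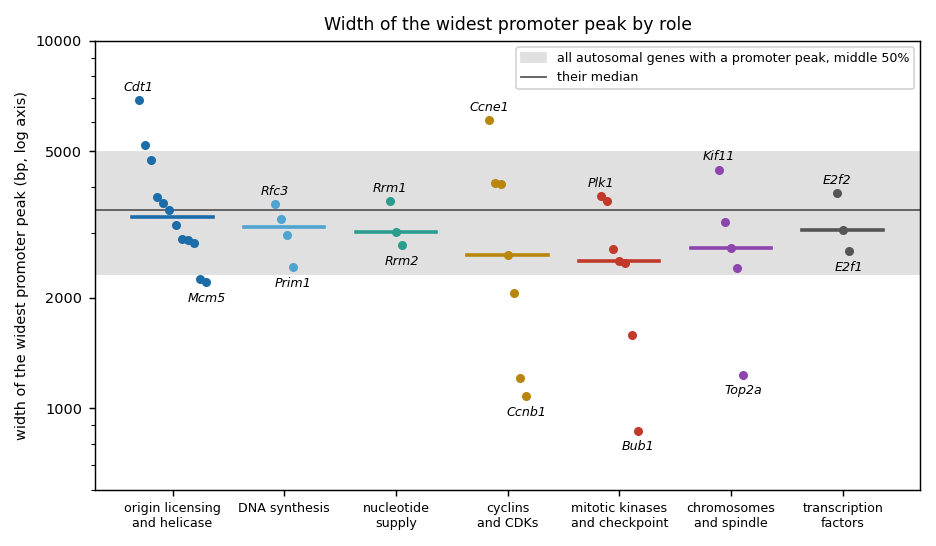
Width of the widest promoter peak of each of the 41 genes in bp on a log axis, by role, with a short line for the median of each role and the names of its widest and narrowest gene. The grey band and line show the middle 50% (2313 to 4974 bp) and the median (3466 bp) of autosomal genes with a promoter peak. The widest gene is inside that band in 5 of 7 role groups, the exceptions being Cdt1 and Ccne1.

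Cyclins and CDKs had the most uneven peaks, with a median of 2605 bp over 7 genes and a range from 1076 to 6090 bp. Ccne1, the E-type cyclin of S phase entry, had 6090 bp, of which 4621 bp lay upstream of the TSS. Its paralog Ccne2 had peaks of 2058 and 1043 bp, the wider one ending 84 bp upstream of the reference TSS and the narrower one covering it. The B-type cyclin genes, whose products activate CDK1 in mitosis, were low in width. Ccnb1 had peaks of 644, 1076 and 481 bp, and Ccnb2 had 1 peak of 1208 bp with only 9 bp inside the gene. Ccna2, the A-type cyclin, had 2605 bp. Cdk2, which acts with the E and A cyclins, had 4091 bp in a gene covered over 64.6% of its length, the highest share in the set. Cdk1 had 3 promoter peaks of 4065, 987 and 2019 bp, and the one over its TSS was 2019 bp wide and reached 133 bp upstream and 1885 bp downstream. The widest lay inside the gene, 3778 to 7842 bp downstream, within 1 kb of another annotated TSS.

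Mitotic kinase and checkpoint genes had a median of 2509 bp over 7 genes. Plk1, the Polo-like kinase of mitotic entry, had 3777 bp and Aurka, the kinase of the spindle poles, 3659 bp. The others were narrower, with 2710 bp at Cdc20, the activator of the anaphase promoting complex, 2509 bp at Aurkb, the kinase of the chromosomal passenger complex, and 2484 bp at Ttk, the kinase at the top of the checkpoint. The checkpoint genes Bub1b and Bub1 had the narrowest peaks of the group, 1583 bp at Bub1b and 869 bp at Bub1, where a second peak of 689 bp stood next to the first. The 869 bp of Bub1 was the lowest value of the set and lay at percentile 4.705 of the autosomal widths.

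Among chromosome and spindle genes, Kif11, the motor that pushes spindle poles apart, had the widest peak at 4462 bp. Cenpa, the histone H3 variant of centromeres, had 3219 bp and Birc5, survivin of the passenger complex, 2726 bp. Mki67, the proliferation antigen Ki-67, had peaks of 2407 and 601 bp. Top2a, the topoisomerase that untangles sister chromatids, had 998 bp over its TSS and 1234 bp upstream of it. Of the transcription factors, E2f2 had 2157 bp over its reference TSS and a wider peak of 3856 bp from 5422 bp downstream of it, within 1 kb of another annotated TSS. E2f1 had peaks of 2674 and 1248 bp. Foxm1, the factor that activates the mitotic genes, had 3061 bp in a promoter shared with Rhno1.

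In all, 12 members had 2 or more promoter peaks (29.3%, against 21.8% of autosomal genes). Among autosomal genes with at least 1 promoter peak the share was 32.6%, and among CpG-rich autosomal genes it was 29.9%, so the members did not stand out in this count. At 7 of them the break came at the TSS itself, a pattern that was defined after the values were seen: neighbouring peaks less than 1 kb apart, with the TSS in the gap or an edge of the gap within 250 bp of it. The 7 were Bub1, Ccnb1, Ccne2, E2f1, Gins2, Mki67 and Top2a (17.1%). Among all autosomal genes the share was 4.92%, among autosomal genes with a promoter peak 7.37%, and among the 126 other cell cycle genes 11.1%. The gap lay upstream of the TSS at 6 of the 7, all except Gins2, as it did in 66.0% of the autosomal genes with such a break and in 73.7% of the CpG-rich ones. It measured 12 bp at Bub1, 36 bp at Ccne2, 62 bp at Top2a, 67 bp at both Ccnb1 and E2f1, and 315 bp at Mki67, where it ran from 398 to 84 bp upstream. At E2f1 the nearest RefSeq start lay 466 bp from the reference TSS used here. The merged list does not say whether these gaps are present in each library.

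By role, the break was seen at 6 of 22 members outside replication and at 1 of 19 replication members, a split of small counts that was not tested. Of 112 motif matches in the 41 promoters, 103 lay inside a peak. Peaks covered most of the searched window in any case. At the positions sampled across it, 92.7% to 97.6% of members were inside a peak. The CHR matches outside a peak belonged to Mki67 and Top2a, and CCAAT matches outside a peak to Cdk1, E2f1, Mki67 and Top2a. All 23 E2F matches lay inside peaks. Whether matches to any motif lay inside peaks more often than the rest of the window was not tested. By motif, members with a CHR had a median widest peak of 2788 bp and members without one 3015 bp, and members with an E2F word had 3370 bp and members without one 2786 bp.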

How the data were processed

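H3K56ac and input libraries were sequenced on an Ion Torrent instrument. The authors trimmed reads with Trim Galore, kept single alignments to mm10 with bowtie, removed duplicates with Picard, called peaks with MACS2 at its default settings with 1 copy kept per position, removed blacklisted regions and merged overlapping peaks with GenomicRanges. The score column that the authors deposited was 0 in all 105600 rows and held no measurement, and 0 columns held values per sample. Merging widens and fuses intervals, so widths describe the union.

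Peaks were set against GENCODE vM21 and the GRCm38.p6 sequence with Python 3.11.15, NumPy 2.4.6, SciPy 1.17.1 and Matplotlib 3.10.9. The CpG ratio and motifs were taken from 300 bases per gene. Functions were tested on simulated peaks. Intervals of shares and medians are binomial. Of 41 members, 34 were in a RefSeq promoter table, 29 of them with a start within 100 bp of the reference TSS. Members, lists, named genes (all members, and the 3 widest of each other list) and comparisons were chosen with earlier results of these data known. The sequence of 1 of the 10 promoters chosen for printing, and some marker genes by name, are not reported here. No test was run, because genes are not replicates. Alternatives were other promoter definitions, intervals of at least 500 bp, intervals under 1 kb apart joined, another TSS, autosomal members and other backgrounds.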

Additional observations from a re-analysis of the deposited data

How the results depend on the processing

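Of 43 alternative values for 9 results, 31 lay inside the 95% interval of the reported value and 12 lay outside it. With peaks less than 1 kb apart joined, the share of members with the reference TSS inside a peak was 100%, their median widest width 3777 bp (95% interval 3219 to 4462) and their median upstream reach 1998 bp, while the autosomal median width was 4364 bp, which lies inside that interval, as the autosomal 3466 bp does inside the members' 2674 to 3587 bp for the peaks as deposited. The autosomal share with a promoter peak was 69.29% within 3 kb of a TSS, 63.37% within 1 kb of the reference TSS, 65.95% for starts of protein-coding transcripts, 65.37% over all protein-coding genes and 94.02% for a CpG ratio of at least 0.6. The autosomal median width was 3401 bp for the reference TSS, 3413 bp over all protein-coding genes and 3697 bp for a CpG ratio of at least 0.6. For the reference TSS, and for starts of protein-coding transcripts, the members' median was 2809 bp (95% interval 2484 to 3219). The autosomal medians in these settings, 3401 and 3440 bp, lie above that interval. Every member had a promoter peak under each alternative run.

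No paired analysis was possible because samples are not separated in the peak list. The planned comparison of Sirt6mKO with Control, with and without a replicate block and without each replicate, was not run for the same reason. Library depth, which limits what a peak caller detects, cannot be read from the list.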
